A study of Mus musculus with 5 samples.

Results

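The genes described here are 36 integrin subunits and focal adhesion adaptors, taken by name from the 54232 genes of the deposited table. They comprise 12 alpha subunits, 8 beta subunits and 16 adaptors. RNA was sequenced from primary myoblasts, the muscle precursor cells of mouse leg muscle, after 72 h in differentiation medium, when they fuse into myotubes. The 3 WT samples were compared with 2 samples from Elmo2EID/EID mice, which carry a knock-in substitution that holds the engulfment and fusion adaptor ELMO2 in an open conformation. The allele was made by homologous recombination and is present in every cell of the mouse, on a mixed C57BL6/129SV background. The study took primary myoblasts from mice of 6 to 8 weeks of age and usually isolated such cells from 3 separate mice, without saying so for each of these libraries. The sex of the mice is not given in the sources used here. The myoblasts of both groups were purified with beads against integrin α7 and grown on gelatin, so one of the 36 genes, Itga7, encodes the protein by which the cells were chosen.

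Integrins are receptors made of 1 alpha and 1 beta subunit that join the extracellular matrix to actin. In skeletal muscle α7β1 is the main laminin receptor of the mature fibre, whereas α5β1 binds fibronectin and is known from the precursor cells. Talins and kindlins bind the beta tail and activate the receptor, vinculin, tensin and zyxin tie it to actin, and the complex of ILK, PINCH and parvin together with the scaffolds FAK, paxillin and p130Cas relays the signal.

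Values below are normalized counts, meaning reads per gene divided by a size factor for the library. The libraries held 35021856 to 49381544 reads, and 3 reads corresponded to 2.65 to 3.73 normalized counts, which limits counting precision only for the rarest genes. The cultures carried the muscle label in their RNA. Myog, the differentiation factor, stood at 47286 to 53544 normalized counts and the fusogen gene Mymk at 40410 to 46722 across all samples, and the summed skeletal muscle markers ranged from 1409059 to 1669985 in WT and from 1415961 to 1536585 in Elmo2EID/EID. The satellite cell gene Pax7 was at 922, 942 and 837 in WT and at 414 and 298 in Elmo2EID/EID. Pax7 was thus lower in the knock-in and passed the 0.05 threshold (limma adjusted p = 0.0076). The knock-in gene Elmo2 was at 1642, 1539 and 1660 in WT and at 1441 and 1327 in Elmo2EID/EID, which does not check the labels because the substitution leaves the gene in place. The summed markers of Schwann cells (16147.5 to 17058.7 in WT, 15618.5 to 16019.3 in the knock-in), fibro-adipogenic cells (10248.9 to 11531.0 and 9067.9 to 9227.7) and pericytes (12348.7 to 14246.1 and 11407.7 to 11761.3) were each lower in the knock-in without overlap, and mostly came from genes that muscle cells also express, such as Erbb3 and Gsn. Their part in the members' values was not tested. Summed markers of endothelial cells also moved with the groups and are given beside the genes they touch. In bulk RNA, fewer cells of a type and less RNA per cell cannot be told apart.

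None of the 35 members that could be tested passed limma's threshold of an adjusted p of 0.05 between the genotypes, and Fermt1, the kindlin of epithelia, had 0 reads in every sample. Of all 18156 genes tested, 2.23% passed. At an unadjusted limma p under 0.05 there were 10 members, 7 higher in the knock-in (6.93% of all genes were) and 3 lower (8.31%), beside 15.2% of all genes in either direction. The groups did not overlap for 14 members, 9 higher (16.7% of all genes were) and 5 lower (15.9%), beside 32.6% of all genes in either direction. One of the 9, Itgb7, reached the filter on low values only through the knock-in samples, in which it was the higher. On the reads recovered from the table, edgeR's quasi-likelihood test called 0 members (2.25% of all genes) and DESeq2 called 5, with Itga2, Lims2, Tns1 and Vcl higher (2.28% of all genes) and Zyx lower (3.06%), beside 5.34% in either direction. The median log2 fold change over the tested members was 0.10, against 0.01 over all genes, and single members ranged from -0.48 for Zyx to 2.01 for Itga2.

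**Figure D1:**
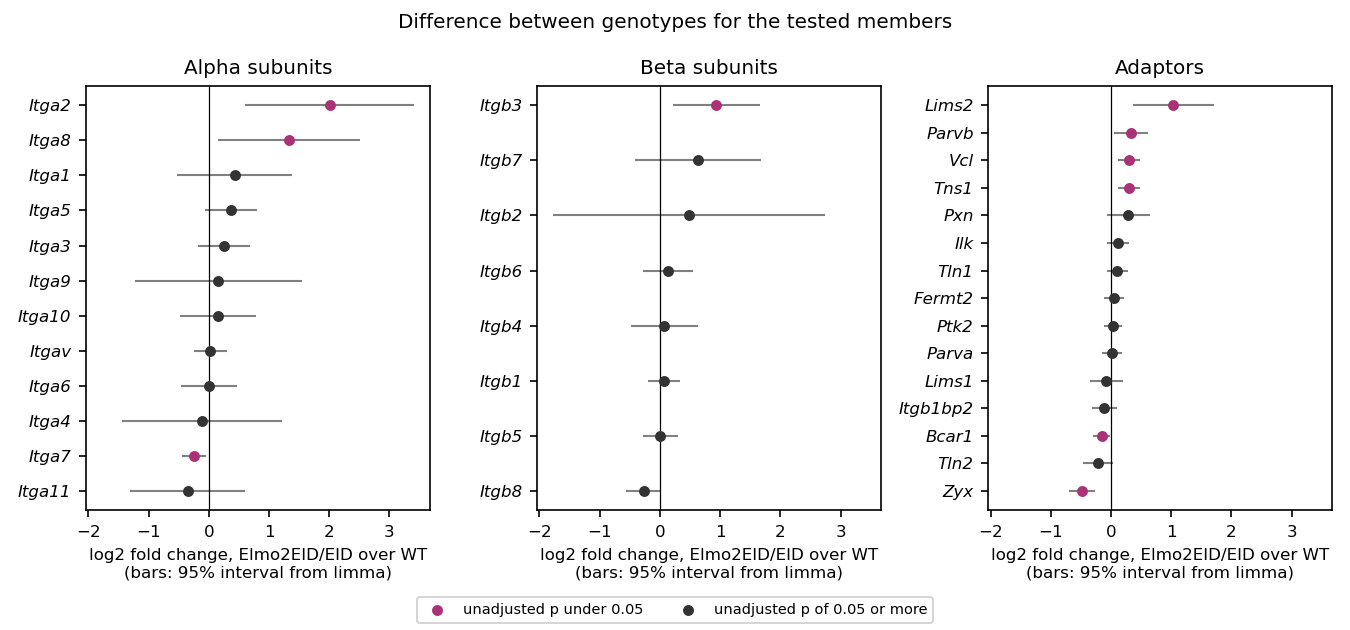
Difference between genotypes for each tested member, as log2 fold change of Elmo2EID/EID over WT on the log2(normalized count + 1) scale, with 95% intervals from limma. The intervals of 10 members, in purple, leave out 0 before adjustment; the widest belong to Itgb2, Itga2, Itga4 and Itga9.

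Promoter sequence is shown for 3 adaptors because Vcl and Zyx are among the members with the smallest p-values and Fermt2 shares a motif with Vcl. Tns1, whose p-value was smaller than that of Vcl, had no match to either motif marked below and is not shown. RefSeq promoters on GRCm38.p6, 250 bases before to 50 after each start, matched 25 of the 36 members by symbol. Those for Itga6, Itga7, Itgb1bp2, Itgb2, Itgb3, Itgb4, Lims2, Parva, Ptk2, Pxn and Tln2 were not among them. Both strands were searched for the CArG box, the element that serum response factor binds, and it occurred in 3 of the 25 genes (Fermt2, Itgb6 and Vcl), or 12%, beside 1.81% of 27025 genes with a promoter. In the stretches below, written 5′ to 3′ on the gene's own strand and limited to bases before the start that no GENCODE exon of the gene covers, capitals mark the CArG box of Vcl (chr14:20929148-20929397, plus strand) and of Fermt2 (chr14:45530119-45530315, minus strand), and in Zyx (chr6:42349706-42349779, plus strand) an AP-1 element.
Vcl: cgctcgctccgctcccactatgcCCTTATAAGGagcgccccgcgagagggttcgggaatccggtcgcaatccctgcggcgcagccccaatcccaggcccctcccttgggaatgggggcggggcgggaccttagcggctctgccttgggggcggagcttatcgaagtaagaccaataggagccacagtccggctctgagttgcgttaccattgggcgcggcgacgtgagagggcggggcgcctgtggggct
Fermt2: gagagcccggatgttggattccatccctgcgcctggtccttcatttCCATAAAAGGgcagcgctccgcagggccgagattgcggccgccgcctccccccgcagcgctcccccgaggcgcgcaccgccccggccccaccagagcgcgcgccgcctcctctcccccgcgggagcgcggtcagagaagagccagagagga
Zyx: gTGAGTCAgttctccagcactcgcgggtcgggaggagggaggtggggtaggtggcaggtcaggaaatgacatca

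The box ended 217 bases before the start in Vcl and 194 bases before it in Fermt2. The match in Itgb6 lay 40 bases before an internal start, inside an exon that GENCODE gives to another transcript, and is not printed. AP-1 elements (TGACTCA or TGAGTCA) occurred in Itga9 and Zyx, 8.0% of the members beside 5.95% of all genes. The E-box CAGCTG of myogenic factors was found in 7 members (28% beside 18.3%), the TEAD motif CATTCC in 3 (12% beside 16.6%) and the GC box GGGCGG in 16 (64.0% beside 38.2%). Matches were counted for each motif separately, whether or not another motif overlapped them, and a match is a run of letters, not a site shown to be bound. Of the 3 genes with a CArG box, Vcl was higher in the knock-in samples without overlap, whereas the groups overlapped for Fermt2 and Itgb6.

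To ask which receptors these cells could make, levels were divided by the exon length of each gene and are given as normalized counts per kb. Among the alpha subunits Itga7 (chr10:128933818-128958282) led in every sample, with 4605 ± 376 (SD, n = 3) across WT and 3871 ± 123 (SD, n = 2) across the knock-in samples. Itga5, the fibronectin receptor subunit (chr15:103344286-103366763), followed at 1478 ± 323 in WT, against 1878 ± 172 in Elmo2EID/EID, and the ranges of these 2 genes did not overlap in WT. Next came Itgav, Itga3, Itga6, Itga9, Itga10 and Itga4, with WT means from 635 for Itgav down to 264 for Itga4, and each overlapped its neighbour in this order. Itga1, Itga11, Itga2 and Itga8 lay far below, at WT means of 9.66, 4.46, 4.06 and 1.39 per kb.

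One beta subunit dominated. Itgb1 (chr8:128685654-128733200), the partner of all 12 alpha subunits here, had 14194 ± 1677 normalized counts per kb in WT (SD, n = 3) and 14829 ± 1014 in Elmo2EID/EID (SD, n = 2). The other beta subunits followed in the order Itgb5 (1178 per kb in WT), Itgb6 (723), Itgb4 (231), Itgb8 (35.9), Itgb3 (21.5), Itgb7 (1.41) and Itgb2 (0.32), and no 2 neighbours in this order had overlapping WT ranges. The summed alpha level was 0.557 to 0.647 of the Itgb1 level across the 5 samples, so Itgb1 RNA exceeded that of all measured alpha subunits together in each of them. Of the adaptors, Itgb1bp2 was the highest at 6886 per kb in WT. It encodes melusin, a muscle protein that binds the β1 tail. Ilk (3653), Tln1 (3347) and Vcl (2940) came next, and Lims2 (26.3) and Fermt1 (0) were the lowest.

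**Figure D2:**
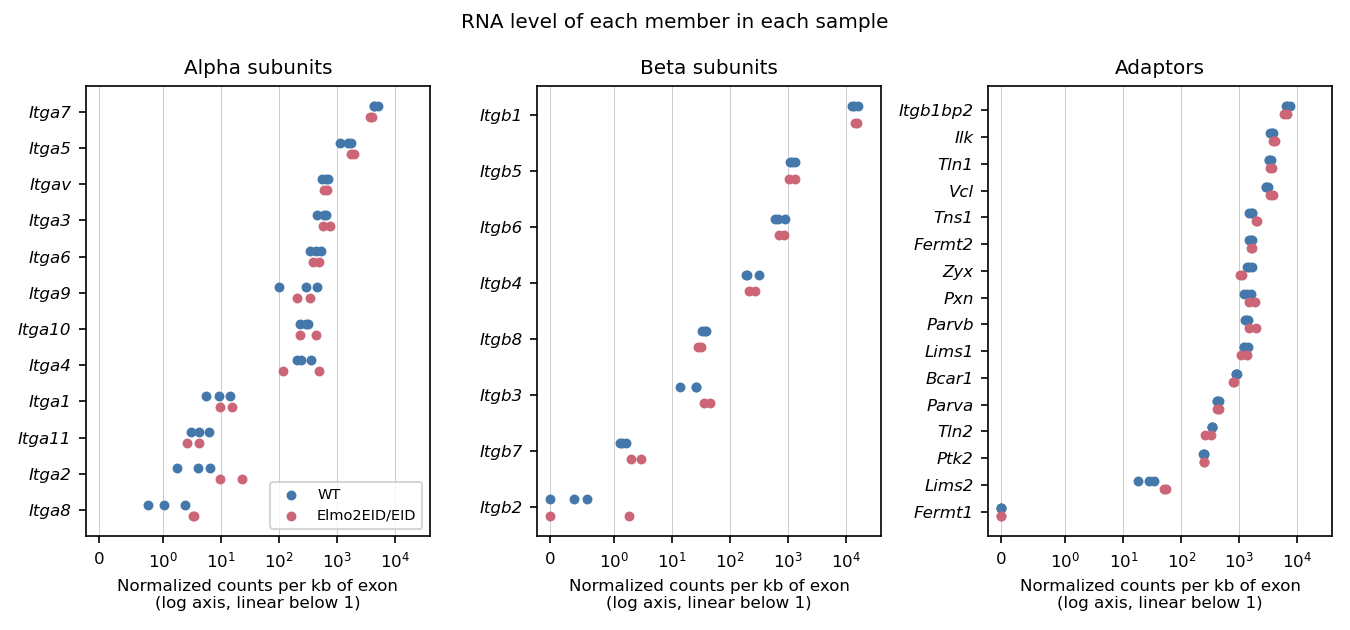
Level of each member in each sample, as normalized counts per kb of exon on a log axis that is linear below 1, with WT in blue and Elmo2EID/EID in red. Itga7, Itgb1 and Itgb1bp2 lead their groups in all 5 samples, and Itga4 and Itga9 spread more within a genotype than the genes beside them.

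The make-up of the alpha RNA was computed as each subunit's share of the summed alpha level per kb. Itga7 took 49.2%, 57.3% and 55.1% of it in WT samples 1, 2 and 3 and 50.4% and 42.0% in Elmo2EID/EID samples 1 and 2. These shares overlapped, and the exact two-sided permutation test of their means gave p = 0.3, where 3 against 2 samples cannot go below 0.1. Itga5 took 19.5%, 12.8% and 19.7% in WT, against 22.4% and 22.2% in Elmo2EID/EID, where both were above every WT sample (exact permutation p = 0.3). By class, the laminin-binding subunits (Itga3, Itga6 and Itga7) made up 65.4% ± 4.0 in WT, against 59.2% ± 4.7 in Elmo2EID/EID, and the RGD-binding subunits (Itga5, Itga8 and Itgav) 24.8% ± 4.9 and 30.0% ± 0.25 (SD, n = 3 and n = 2). The laminin-binding shares overlapped, at 61.6% to 69.6% in WT and 62.5% and 55.9% in Elmo2EID/EID. The RGD-binding shares did not overlap, at 19.1% to 27.8% in WT and 30.1% and 29.8% in Elmo2EID/EID. Class shares were not tested. Collagen-binding subunits stayed at 3.21% to 5.12% and Itga4 with Itga9 at 3.87% to 9.22%. Itgb1 held 84.0% to 89.1% of the beta level across both genotypes. The Itga7 share depends on the length assigned: with the longest protein-coding transcript in place of all exons, a choice added after the data were seen, its WT mean was 64.1% in place of 53.9%.

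**Figure D3:**
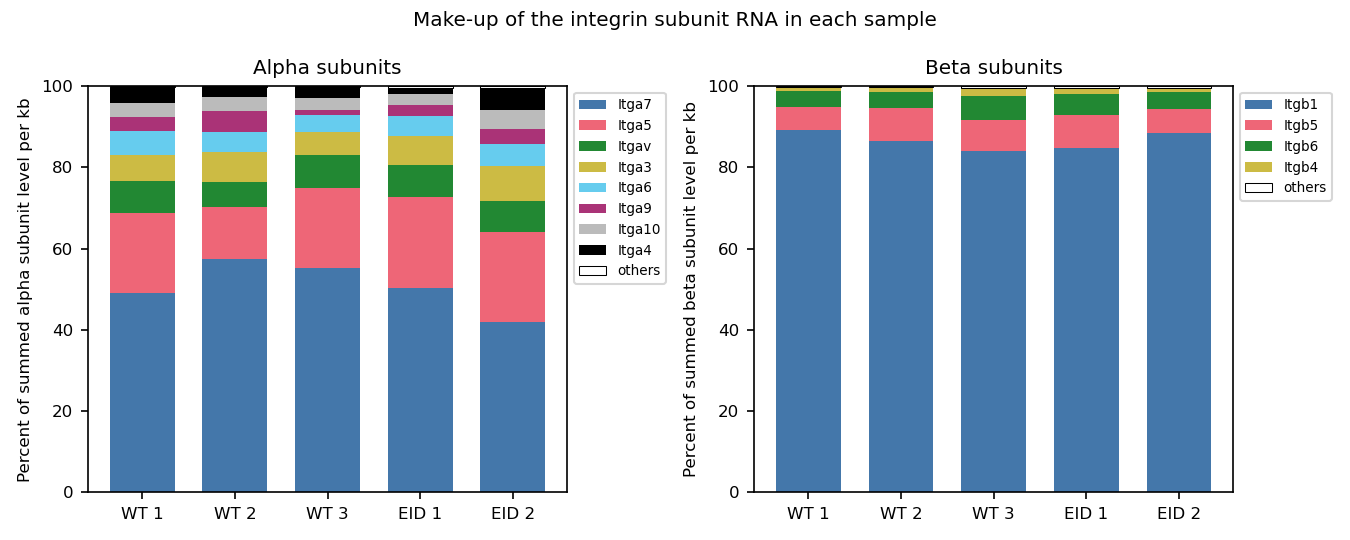
Share of each subunit in the summed alpha level (left) and beta level (right) per kb, in percent, for each of the 3 WT and 2 Elmo2EID/EID (EID) samples. Itga7 takes 42.0% to 57.3% of the alpha level and Itgb1 84.0% to 89.1% of the beta level.

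None of the laminin-binding subunits passed the test. Itga7 stood at 35837, 40757 and 35201 normalized counts in WT and at 32027 and 30620 in Elmo2EID/EID. Both Elmo2EID/EID samples were below every WT sample, with a log2 fold change of -0.25 (SE 0.08, limma adjusted p = 0.231). Itga3, whose product binds laminins of basement membranes, was at 3347, 3688 and 2552 in WT and at 3239 and 4372 in Elmo2EID/EID. Itga6 was at 4832, 3919 and 3059 in WT and at 3449 and 4369 in Elmo2EID/EID. The groups overlapped for Itga3 and Itga6, and for Itga6 the log2 fold change was 0.0048 with a 95% interval from -0.45 to 0.46.

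Itgb4, which pairs only with α6 and anchors epithelia at hemidesmosomes, was at 1298, 1374 and 2192 in WT and at 1883 and 1456 in Elmo2EID/EID, with overlapping groups. Itgb6, an αv partner known from epithelia, was at 4758, 4278 and 6396 in WT and at 6135 and 5004 in Elmo2EID/EID, also overlapping. Of 7 epithelial markers, Krt5 had 0 reads in all samples, and Krt14 and Epcam had at most 1. Krt8 was low, at 3.58 to 21.1, whereas Cldn4, Krt18 and Sfn were expressed. Sfn was at 76.0, 94.2 and 84.5 in WT and at 23.3 and 21.5 in Elmo2EID/EID (limma adjusted p = 0.0090). The summed epithelial markers, mostly Cldn4 and Krt18, ranged from 576.9 to 908.7 in WT and from 279.0 to 293.1 in Elmo2EID/EID, without overlap. Their part in the values of Itgb4 and Itgb6 was not tested.

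Among the RGD-binding receptors, which recognise fibronectin, vitronectin and osteopontin, Itga5 was at 8663, 5543 and 7664 normalized counts in WT and at 8664 and 9861 in Elmo2EID/EID. The groups were separated by about 1 normalized count, and the log2 fold change was 0.37 (SE 0.18, limma adjusted p = 0.403), or 0.18 without WT sample 2. Itgav was at 7658, 5923 and 6897 in WT and at 6527 and 7314 in Elmo2EID/EID, and the groups overlapped. Its log2 fold change was 0.03, with a 95% interval from -0.25 to 0.30. Itga8, known from smooth muscle and other stromal cells, was at 17.7, 5.61 and 7.46 in WT and at 24.1 and 25.1 in Elmo2EID/EID, from 5 to 28 reads per library. The knock-in mean was 2.40-fold the WT mean, without overlap (limma adjusted p = 0.271).

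The αv partners followed no single direction. Itgb3 (chr11:104608000-104670476), the vitronectin receptor subunit best known from platelets, osteoclasts and endothelium, was at 149, 79.6 and 152 in WT and at 263 and 209 in Elmo2EID/EID. The knock-in samples were both above every WT sample, with a log2 fold change of 0.94 (SE 0.30, limma adjusted p = 0.208). Itgb8, whose αv heterodimer activates latent TGF-beta, was at 356, 405 and 430 in WT and at 310 and 346 in Elmo2EID/EID, where both were lower (log2 fold change -0.27, SE 0.12, limma adjusted p = 0.359). The more abundant Itgb5 was at 3771, 4606 and 4179 in WT and at 4706 and 3743 in Elmo2EID/EID. Its groups overlapped, and its log2 fold change was 0.0088 with a 95% interval from -0.28 to 0.30. Itgb1 itself was at 65680, 55376 and 52726 in WT and at 57590 and 63444 in Elmo2EID/EID, with a log2 fold change of 0.07 and a 95% interval from -0.20 to 0.33.

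Of the collagen-binding subunits, Itga2 had the largest fold change of all members. Itga2 (chr13:114833081-114932100) was at 45.9, 12.3 and 28.6 normalized counts in WT and at 68.0 and 163 in Elmo2EID/EID, that is 52, 11 and 23 reads against 76 and 182. Each knock-in sample was above every WT sample, but they differed from each other by 2.40-fold and the WT samples by up to 3.72-fold. The log2 fold change was 2.01 (SE 0.59), the adjusted p was 0.173 in limma and 0.138 in edgeR, and DESeq2 called it with an adjusted p of 0.0182. The study singled out Itga2 and Lims2 on these same samples, so their direction is not independent evidence. Its neighbour Itga1, 20995 bases away on chromosome 13, was at 169, 103 and 267 in WT and at 287 and 177 in Elmo2EID/EID, with overlapping groups. Itga11 was at 13.4 to 31.8 in all samples, also overlapping. Itga10, the most abundant of this class, was at 1648, 1527 and 1196 in WT and at 1174 and 2213 in Elmo2EID/EID, so that 1 knock-in sample was the lowest and the other the highest of the 5. Exons of Itga1 and Itga10 overlap another gene on the same strand (Gm49395 and Gm42957), and reads in the overlap are uncertain.

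Endothelial markers were higher in both knock-in samples, as were the 9 members higher without overlap and 16.7% of all genes. The sum of 12 endothelial markers, among them Pecam1, Cdh5 and Flt1, was 1875.7, 647.2 and 2054.8 in WT, against 4015.5 and 5954.4 in Elmo2EID/EID. Both Elmo2EID/EID samples exceeded every WT sample for 11 of the 12 markers, the exception being Cldn5 at 1.79 to 6.18, and WT sample 2 was the lowest WT sample for all 12. WT sample 2 was also the lowest WT sample for 6 of these 9 members, Itga2, Itga5, Itga8, Itgb3, Lims2 and Parvb, but not for Vcl, Tns1 and Itgb7. That sample was the lowest for 13 of the tested members and for 33.5% of all genes. The spread of the 6 within WT ran from 1.12-fold for Parvb to 3.72-fold for Itga2. The part of endothelial RNA in the values of these members was not tested.

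Itga4 and Itga9, the receptors for VCAM-1, osteopontin and tenascin, varied within a genotype more than nearly all other well expressed genes. Itga4 was at 4922, 3319 and 2848 in WT and at 1620 and 6824 in Elmo2EID/EID, a 4.21-fold gap between the 2 knock-in samples. Of 8118 genes whose mean reached 500 normalized counts, 0.0862% had a gap as large there, and the median gene differed by 1.07-fold. Itga9 was at 2273, 3462 and 782 in WT and at 1596 and 2632 in Elmo2EID/EID, and its 4.43-fold range in WT was matched by 0.136% of these genes. For Itga10 the gap in Elmo2EID/EID was 1.88-fold, matched by 0.53%. No difference between genotypes was detectable for Itga4, Itga9 and Itga10 within this spread: the 95% interval of the log2 fold change ran from -1.44 to 1.21 for Itga4 and from -1.22 to 1.54 for Itga9.

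**Figure D4:**
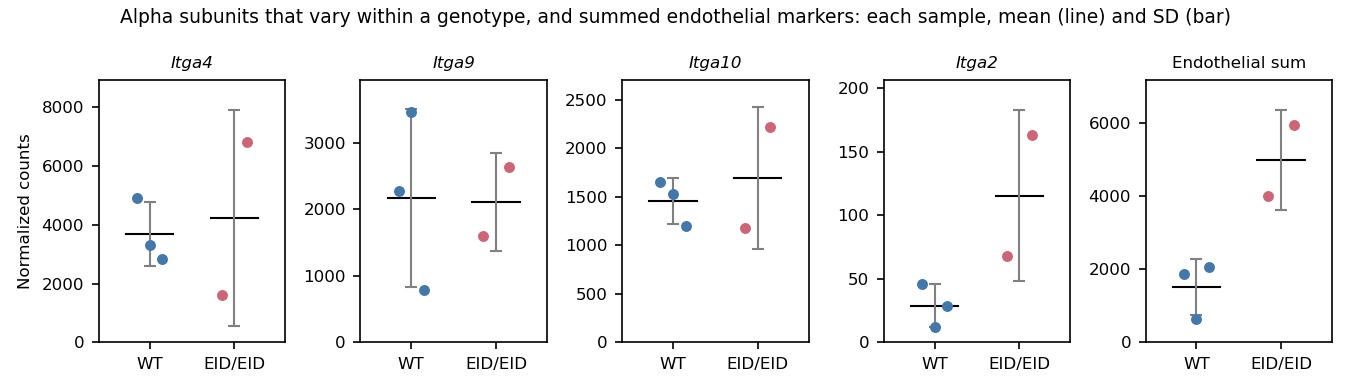
Normalized counts of 4 alpha subunits and of the summed endothelial markers in each sample, with WT in blue, Elmo2EID/EID (EID/EID) in red, the mean as a line and the SD as a bar. The knock-in samples lie at 1620 and 6824 for Itga4, and WT samples at 782 to 3462 for Itga9; Itga2 and the endothelial sum are both higher in the 2 knock-in samples.

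The leukocyte beta subunits were near the counting limit. Itgb2 had 2, 1 and 0 reads in WT, against 6 and 0 in Elmo2EID/EID, and it entered the test only through Elmo2EID/EID sample 1. That sample also had the highest sum of 9 leukocyte markers, 221.8 normalized counts against 39.8 to 69.5 in WT and 48.4 in Elmo2EID/EID sample 2; their part in the Itgb2 reads was not tested. Itgb7 had 4, 4 and 3 reads in WT, against 6 and 9 in Elmo2EID/EID and passed the filter only through the latter.

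The proteins that link integrins to actin held the smallest p-values of all members. Zyx (chr6:42349630-42360213) encodes zyxin, a LIM protein that recruits actin polymerising factors to strained adhesions and stress fibres. It was at 8994, 7879 and 7451 normalized counts in WT, 8108 ± 797 (SD, n = 3), and at 5578 and 6003 in Elmo2EID/EID, 5790 ± 300.5 (SD, n = 2). Each knock-in sample was below every WT sample. The log2 fold change was -0.48 (SE 0.09), and its adjusted p was 0.0544 in limma and 0.0507 in edgeR, just short of the threshold, and 4e-04 in DESeq2. Without WT sample 3 the limma adjusted p was 0.0492, and without the other samples it rose to at most 0.266.

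Vcl and Tns1 went the other way. Vcl (chr14:20929398-21033676) encodes vinculin, which binds talin and actin under load, and its promoter is shown above with its CArG box. Vcl was at 25247, 23549 and 23437 in WT and at 27802 and 31536 in Elmo2EID/EID. Both Elmo2EID/EID samples were above every WT sample, with a fitted log2 fold change between the groups of 0.30 (SE 0.08, limma adjusted p = 0.132, DESeq2 adjusted p = 0.0201). Tns1 (chr1:73910231-74124449) encodes tensin, which marks the elongated adhesions over fibronectin fibrils. It was at 26991, 26203 and 23938 in WT and at 32134 and 30989 in Elmo2EID/EID, again without overlap (log2 fold change 0.30, SE 0.07, limma adjusted p = 0.114, DESeq2 adjusted p = 0.0111). All 3 actin linkers are among the 10 members with an unadjusted limma p under 0.05, a threshold that 15.2% of all genes met.

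**Figure D5:**
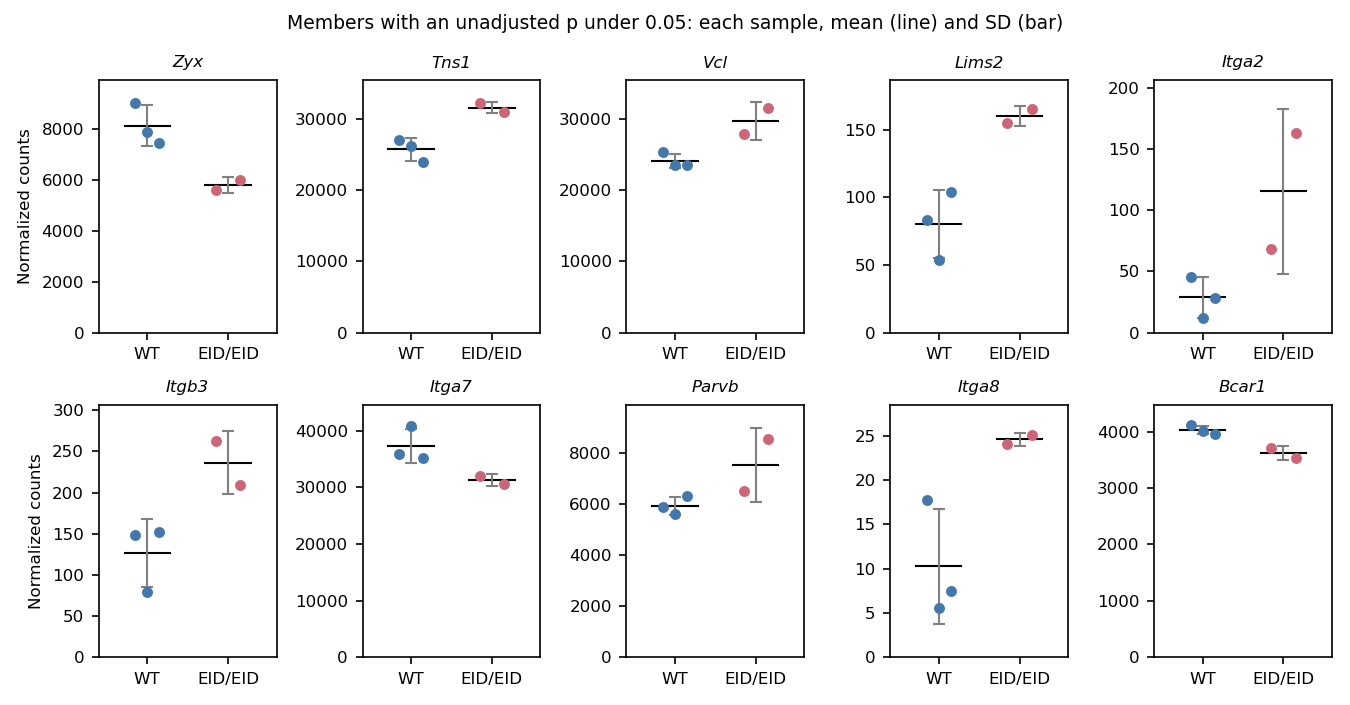
Normalized counts of the 10 members with an unadjusted limma p under 0.05 in each sample, ordered by p, with WT in blue, Elmo2EID/EID (EID/EID) in red, the mean as a line and the SD as a bar. In each of the 10 panels the 2 knock-in samples lie outside the WT range, below it for Zyx, Itga7 and Bcar1 and above it for the other 7.

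Within the complex of ILK, PINCH and parvin, the gene of the rarer PINCH had the largest fold change. Lims2, which encodes PINCH2, lies on chromosome 18 and was at 83.1, 53.8 and 104 in WT and at 155 and 165 in Elmo2EID/EID. The knock-in samples were both above every WT sample (log2 fold change 1.03, SE 0.28, limma adjusted p = 0.143, DESeq2 adjusted p = 0.0359). Its far more abundant paralogue Lims1 was at 5995, 5956 and 6953 in WT and at 6662 and 5323 in Elmo2EID/EID, with overlapping groups. Per kb of exon, Lims1 exceeded Lims2 in every sample, with WT means of 1288 against 26.3. The kinase gene Ilk was at 10258, 10396 and 9421 in WT and at 10349 and 11407 in Elmo2EID/EID. Parva, the broadly expressed parvin, was at 4138 to 4556 in WT and at 4189 and 4521 in Elmo2EID/EID, and the groups of Ilk and Parva overlapped. Parvb, the parvin enriched in heart and skeletal muscle, was at 5864, 5605 and 6295 in WT and at 6497 and 8547 in Elmo2EID/EID (log2 fold change 0.33, SE 0.12, limma adjusted p = 0.256). Elmo2EID/EID sample 2 set most of that difference, since without it the log2 fold change was 0.14.

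No member of the talins and kindlins, which switch the receptor on, passed the test. Tln1, the main talin, was at 31495, 34315 and 32612 in WT and at 33884 and 36562 in Elmo2EID/EID, with a 95% interval of the log2 fold change from -0.07 to 0.28. Fermt2, the kindlin of muscle, was at 8652, 8228 and 7647 in WT and at 8544 and 8398 in Elmo2EID/EID, with an interval from -0.11 to 0.22. Tln2, the talin of mature muscle, was at 6132, 6264 and 6209 in WT and at 6032 and 4723 in Elmo2EID/EID. Each knock-in sample was lower, but they were 1.28-fold apart while the WT samples were within 1.02-fold (log2 fold change -0.22, limma adjusted p = 0.391). It was -0.04 without Elmo2EID/EID sample 2 and -0.39 without Elmo2EID/EID sample 1. Melusin RNA, Itgb1bp2, was at 12149, 13391 and 11623 in WT and at 12164 and 10738 in Elmo2EID/EID, with overlapping groups.

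Of the signalling scaffolds, Bcar1, which encodes the stretch-sensitive Crk and DOCK1 partner p130Cas, was at 4112, 4006 and 3963 in WT and at 3706 and 3527 in Elmo2EID/EID. Both were below every WT sample, with a fitted log2 fold change between the groups of -0.16 (SE 0.06, limma adjusted p = 0.285). Ptk2, the gene of focal adhesion kinase, was at 2936, 2749 and 2944 in WT and at 2946 and 2919 in Elmo2EID/EID, with an interval of the log2 fold change from -0.12 to 0.18. Pxn, the gene of paxillin, was at 13017, 9739 and 11060 in WT and at 11978 and 15647 in Elmo2EID/EID. The groups overlapped for Ptk2 and Pxn.

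Around these members, 50 other genes of focal adhesions and 33 integrin ligands were counted in the same fit. Of the other adhesion genes 48 were tested and 1 passed in limma, beside 2.23% of all genes, while 13 had an unadjusted p under 0.05, 4 higher and 9 lower, beside 15.2%, 6.93% and 8.31% of all genes. The gene that passed was Cass4, a member of the p130Cas family, at 28.3, 10.1 and 26.1 in WT and at 169 and 185 in Elmo2EID/EID (log2 fold change 3.11, SE 0.44, limma adjusted p = 0.0219, edgeR adjusted p = 0.0081, DESeq2 adjusted p = 1.4e-11). It rose in both knock-in samples, and with either of them left out it no longer passed, at adjusted p-values up to 0.213. WT sample 2 was the lowest WT sample for Cass4 and for Cav1, as for the endothelial markers and for 33.5% of all genes. The part of endothelial RNA in these values was not tested. Cass4 (chr2:172393794-172433757) lies on the same chromosome as the knock-in gene Elmo2 (chr2:165288031-165326479). On the mixed background, the part of strain differences near the knock-in was not tested. The largest other differences without overlap were higher Cav1, the caveolin gene (log2 fold change 0.74), and Sorbs2, a Z-disc and adhesion adaptor gene (0.52). Lower were Ptk2b, the gene of the FAK relative PYK2 (-0.69), the docking protein gene Dok1 (-0.64) and Nck2, whose product binds PINCH (-0.45). The limma adjusted p of these 5 genes lay between 0.0625 and 0.285. DESeq2 called 8 of the list, beside 5.34% of all genes.

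Among the ligands 31 were tested and 1 passed in limma, beside 2.23% of all genes. Spp1 encodes osteopontin, an RGD ligand of αv receptors that also binds α4 and α9. It was at 46681, 47844 and 47984 in WT and fell to 28738 and 16799 in Elmo2EID/EID, with a log2 fold change of -1.11 (SE 0.20, limma adjusted p = 0.0470). Spp1 also passed in DESeq2 (adjusted p = 5.3e-06). The call did not hold in edgeR (adjusted p = 0.0524), nor in limma with any 1 WT sample left out. With 1 of the 5 samples left out its log2 fold change ran from -1.50 to -0.72. Of the ligands that did not pass, the largest differences without overlap in each direction were lower Tnc, a ligand of α9 (log2 fold change -1.23, limma adjusted p = 0.0883), and Col3a1, a fibrillar collagen gene (-0.90, adjusted p = 0.102), and higher Icam1, a ligand of leukocyte integrins (2.29, adjusted p = 0.229), Lama4, the laminin chain of vessels (1.89, adjusted p = 0.172), and Lamb3, a chain of epithelial laminin (0.53, adjusted p = 0.0609). WT sample 2 was the lowest WT sample for Icam1 and Lama4, as for the endothelial markers, whose part in these values was not tested. DESeq2 called 9 of the list, beside 5.34% of all genes.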

How the data were processed

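Poly-A RNA of 5 cultures was made into stranded libraries and sequenced as paired reads. The authors checked reads with FastQC 0.11.5, aligned them to GRCm38 with STAR 2.5.1b, counted unique reads per Ensembl gene by strand with featureCounts 1.4.6 and deposited counts divided by DESeq2 1.34.0 size factors, a normalized signal per gene. Reads were recovered by dividing each value by its sample's smallest step, and 100.0% of the values came out whole within 0.01 reads. Names came from GENCODE M21 for 54165 of 54232 identifiers, and 27369 genes were above 0.

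All 3 WT and 2 Elmo2EID/EID samples entered one fit with limma 3.58.1 (R 4.3.3) on log2(normalized count + 1) with a mean-variance trend and no block. It covered 18156 genes that reached 5 normalized counts in any sample, with two-sided tests and Benjamini-Hochberg adjustment at 0.05. Fold changes are on this scale, which understates those of low genes. On the recovered reads edgeR 4.0.16 (quasi-likelihood, TMM) called 408 genes and DESeq2 1.42.0 called 969, against 404 in limma. Other pseudocounts, filters and scalings, a replicate block and leaving out each sample were tried. The fits were tested on simulated counts. Per-kb levels used the union of GENCODE exons, and shares were compared by an exact permutation test.

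The 36 members and all lists were chosen with earlier results of these data known. All members are named; of the other adhesion and ligand lists, genes that passed and the 3 largest differences per direction with a mean of at least 50 and no overlap. The labels do not say that replicates were separate cultures or animals, so p-values measure the spread between these samples, which may be technical. Any 2 replicates differed beyond sampling noise (chi-square per degree of freedom 26.6 to 37.8).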

Additional observations from a re-analysis of the deposited data

How the results depend on the processing

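Over 15 alternatives, 479 of 522 values of the tested members kept their direction and side of the threshold, 8 newly passed and 35 changed sign, the latter in 12 members, none of which passed in any of these fits. The count of members called was 0 in limma, 1 (Zyx) with a pseudocount of 5 or quantile normalization, 5 in DESeq2 and 0 to 1 with 1 sample left out; only the fit without WT sample 3 called Zyx. The count was the same for the adaptors, except 4 in DESeq2, and DESeq2 called 1 alpha subunit, Itga2. Of the other adhesion genes, 1 was called in limma, 0 without a filter or trend, 2 with quantile normalization, 8 in DESeq2 and 0 to 2 with 1 sample left out. Of the ligands, 1 was called in limma, 0 with a pseudocount of 0.5, without a filter, with a mean of at least 10, without the trend or in edgeR, 9 in DESeq2 and 0 to 2 with 1 sample left out. The cause was not tested.

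Log2 fold changes that changed sign were those of Itga6 (0.0048), Itgav (0.03), Itgb1 (0.07) and Itgb5 (0.0088) under quantile normalization, to -0.0068, -0.0019, -0.011 and -0.0034, and of Itga6 and Itgb5 with equal totals, to -0.0090 and -0.0050. In edgeR Itga6 was at -0.017, Itga4 at 0.18 (from -0.11) and Itga9 at -0.047 (from 0.16), and in DESeq2 they were at -0.010, 0.19 and -0.039. With 1 sample left out the ranges were -0.30 to 0.62 for Itga10, -0.17 to 0.18 for Itga6, -0.073 to 0.11 for Itgav, -1.15 to 0.92 for Itga4, -0.45 to 0.62 for Itga9, -0.0019 to 0.16 for Itgb1, -0.16 to 0.17 for Itgb5, -0.018 to 0.30 for Itgb6, -0.11 to 0.31 for Itgb4, -0.24 to 0.084 for Lims1, -0.038 to 0.072 for Parva and -0.0036 to 0.046 for Ptk2.

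With the replicate number as a block, members called stayed at 0, ligands called were 3 (Col3a1, Lama4 and Tnc), and Itga6 (-0.16), Itga9 (-0.45) and Parva (-0.011) changed sign. The numbers gave no sign of pairing: across 12298 genes, replicate 1 minus replicate 2 of WT correlated at -0.27 with that in Elmo2EID/EID, with only 2 pairs, which does not settle whether a number marks a shared batch, and the labels do not say. Fermt1, with 0 reads, gave no value, and a mean of at least 10 left out Itgb2 and Itgb7. With 3 reads worth 2.65 to 3.73 normalized counts, counting noise weighs most on Itgb2, Itgb7 and Itga8, and also on Itga2 and Itga11, which had as few as 11 and 14 reads in a library.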
